A study of Mus musculus with 25 samples.

Results

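Oligodendrocyte precursor genes, 9 in number, were followed through cultures of purified mouse astrocytes: Olig1, Olig2, Sox10, Nkx2-2, Pdgfra, Cspg4, Gpr17, Lhfpl3 and Bcas1. They were taken by gene name from a table of 54429 entries, and all 9 had an entry. RNA was sequenced from cortical astrocytes of C57BL/6J mice, captured on an antibody to the astrocyte surface protein HepaCAM and then cultured. Cells with an inhibitor of EGFR, the epidermal growth factor receptor, added on day 2 in vitro gave 3 libraries, and their DMSO (solvent) controls gave 3. Cells from which HBEGF, a ligand of EGFR, was withdrawn on the day of preparation gave 2 libraries, and cells given HBEGF gave 2. Cells with an inhibitor of P53, also added on day 2, gave 3 libraries, and a separate set of DMSO controls gave 3. Cultures sampled at day 2, day 7 and day 14, with no treatment named, gave 3 libraries each. The sources used here do not name the inhibitors, their doses, the harvest day of treated cells, the age of the mice or the medium of each group. Nothing states that replicates came from separate animals or cultures, so p-values measure the spread between these libraries, which may be technical.

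Oligodendrocyte precursors are dividing glial cells that give rise to the myelinating cells of the brain. The basic helix-loop-helix factors Olig1 and Olig2, the SOX factor Sox10 and the homeobox factor Nkx2-2 set up the lineage. Pdgfra, the receptor for the growth factor PDGF-A, and Cspg4, the NG2 proteoglycan, are the classical surface marks of the precursor, while Gpr17 and Bcas1 mark cells that are leaving that state for differentiation. Olig2 is also made by astrocyte progenitors and by some astrocytes, so it does not mark precursors alone.

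The libraries held 4011416 to 9695685 reads counted to genes (median 6109744). The 9 astrocyte markers summed to 365 to 386 RPKM with EGFR inhibitor against 110 to 141 with DMSO, and to 276 to 300 without HBEGF against 118 to 124 with it. At a limma adjusted p below 0.05, 6 of the 9 were higher with inhibitor and 1, Aldh1l1, was lower. After withdrawal 5 were higher and 2, Slc1a3 and Aldh1l1, were lower. Of all tested genes, 16.3% were higher and 22.2% lower with inhibitor, and 10.0% and 22.5% after withdrawal. Markers of microglia, endothelial cells, pericytes and fibroblasts summed to at most 1.98, 0.414, 0.997 and 0.981 RPKM in any library. Kcnj8, a pericyte channel, was listed at 0 in all. The microglial sum averaged 0.871 ± 0.321 RPKM with EGFR inhibitor and 0.0779 ± 0.061 with DMSO (SD). It averaged 1.68 ± 0.42 RPKM without HBEGF and 0.056 ± 0.0196 with it (SD). Of 4 microglial markers tested in the voom fit described below, C1qb and Itgam were called higher in both comparisons, Aif1 after withdrawal only. Col1a2, the 1 fibroblast marker tested there, was called higher in both. Their part in the changes of the precursor genes was not tested. The 7 markers of myelinating oligodendrocytes summed to 0.2 to 1.53 RPKM in the EGFR, P53 and day libraries, and to 4.88 to 24.6 RPKM in the 4 libraries of the HBEGF experiment. In bulk RNA, fewer cells of a type and less RNA per cell cannot be told apart.

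The deposited unit, RPKM (reads per kilobase of gene, scaled to the library total), treats these genes unequally. Multiplied back by the whole gene span, introns included, the values of a library total 999128 to 1002611; with the exon length they total 377054 to 519436. The authors' length was therefore the span. Olig1 spans 2162 bases in 1 exon (chr16:91269772-91271933, plus strand, GRCm38), and its span and exon length are the same. Olig2 lies beside it (chr16:91225457-91228677, plus strand) with 2530 exon bases in a span of 3221. Lhfpl3, which encodes a membrane protein of the LHFPL family, has 3213 exon bases in a span of 529539 (chr5:22746059-23275597, plus strand). Bcas1 has 3775 exon bases in 80855 (chr2:170346991-170427845, minus strand). The spans and exon lengths were 45924 and 10024 bases for Pdgfra (chr5:75152292-75198215, plus strand), 34838 and 11931 for Cspg4 (chr9:56865033-56899870, plus strand), and 16698 and 2875 for Nkx2-2 (chr2:147177546-147194243, minus strand). They were 10333 and 3051 bases for Sox10 (chr15:79154908-79165240, minus strand) and 6640 and 5195 for Gpr17 (chr18:31942997-31949636, minus strand).

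**Figure D1:**
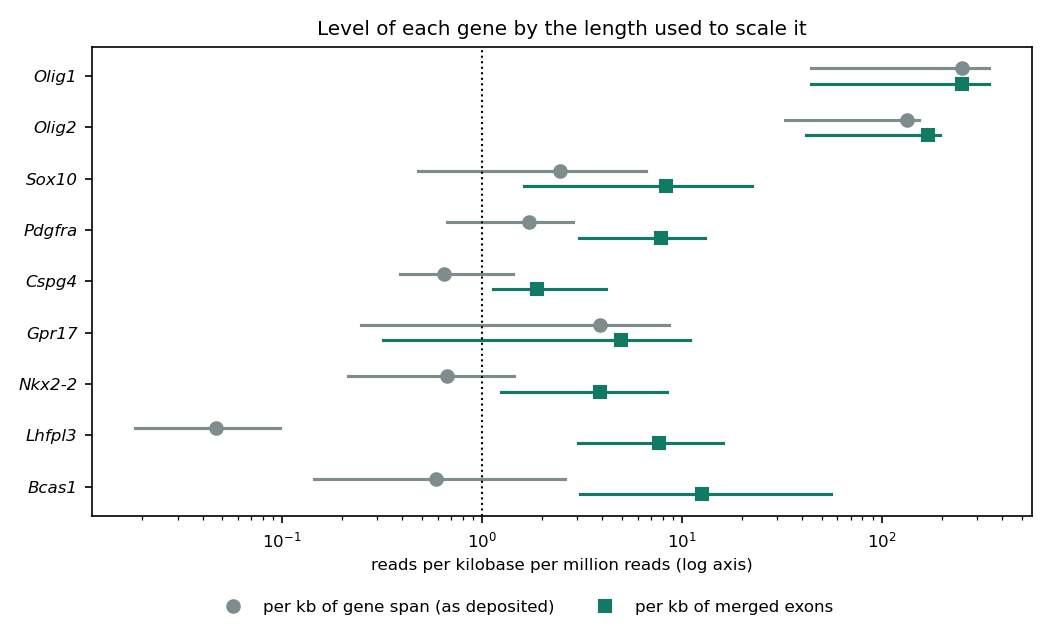
RPKM of each gene on a log axis, per kilobase of gene span as deposited (grey circles) and per kilobase of merged exons (green squares), with the median and the range over 25 libraries; the dotted line is the RPKM minimum of 1 used for testing. Lhfpl3 has a median of 0.0468 on the deposited scale and 7.71 on exon length, while Olig1 is at 253 on both.

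Lhfpl3 shows how much the length matters. Its median was 0.0468 RPKM as deposited and 7.71 per kilobase of exon, from 56 to 356 reads per library. Per kilobase of exon the medians over the 25 libraries were 253 for Olig1 and 169 for Olig2, 12.6 for Bcas1, 8.31 for Sox10, 7.84 for Pdgfra, 4.96 for Gpr17, 3.88 for Nkx2-2 and 1.87 for Cspg4. Olig1 and Olig2 thus stood well above the other members, whose ranges over libraries overlapped. Because log2(RPKM + 1) flattens changes of genes under about 1 RPKM, a limma-voom fit of the recovered reads, which needs no length, is given beside the test of the RPKM values. Exons of Gpr17 overlap those of Lims2 on the other strand (3 to 76 reads), and the sources used here do not say whether counting used strand. Antisense genes that overlap exons of Olig1, Pdgfra, Lhfpl3 and Bcas1 had at most 30 reads in any library. Nkx2-2os, which overlaps 278 of the 2875 exon bases of Nkx2-2 on the other strand, had 0 to 17 reads (median 4).

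RefSeq promoters, from 250 bases before to 50 after the start used there on GRCm38.p6, were found for 5 of the 9 genes. That start is not always the gene end given above, which comes from another annotation. For Nkx2-2 the window (chr2:147186353-147186652, minus strand) lies inside the span given above, and for Olig2 the starts differ as well. Shown are Olig2, which fell with both EGFR inhibitor and HBEGF withdrawal, Pdgfra, whose changes differed between them, and Lhfpl3, the gene most affected by the length used. Capitals mark matches, on either strand, to the SOX core ACAAT, the E-box CAGCTG that Olig factors can bind, and the ETS core CCGGAA. The SOX core ACAAAG, the E-box CATATG and the AP-1 site TGANTCA were searched too. Olig2 (chr16:91225300-91225599, plus strand) has 1 ACAAT match, as have the promoters of Cspg4 and Nkx2-2. Lhfpl3 (chr5:22745804-22746103, plus strand) has 2 CAGCTG matches and 1 CCGGAA match, and Pdgfra (chr5:75152001-75152300, plus strand) has none of the 6 motifs.
Olig2: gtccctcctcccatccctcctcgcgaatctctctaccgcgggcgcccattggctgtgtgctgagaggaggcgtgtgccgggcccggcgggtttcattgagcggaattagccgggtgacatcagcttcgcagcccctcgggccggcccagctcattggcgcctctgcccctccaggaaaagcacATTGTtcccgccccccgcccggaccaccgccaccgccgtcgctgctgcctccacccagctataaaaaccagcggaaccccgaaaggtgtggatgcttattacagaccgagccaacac
Pdgfra: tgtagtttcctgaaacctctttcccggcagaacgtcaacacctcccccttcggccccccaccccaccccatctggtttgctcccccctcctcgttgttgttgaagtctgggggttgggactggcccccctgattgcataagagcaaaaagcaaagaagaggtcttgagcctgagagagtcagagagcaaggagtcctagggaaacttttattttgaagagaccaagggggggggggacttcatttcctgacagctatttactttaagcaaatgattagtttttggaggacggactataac
Lhfpl3: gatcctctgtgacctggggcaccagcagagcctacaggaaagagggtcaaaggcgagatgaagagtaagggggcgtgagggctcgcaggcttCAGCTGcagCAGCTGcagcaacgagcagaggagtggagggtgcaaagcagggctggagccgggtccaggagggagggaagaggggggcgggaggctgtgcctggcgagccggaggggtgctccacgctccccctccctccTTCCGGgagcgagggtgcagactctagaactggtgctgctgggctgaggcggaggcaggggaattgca
Among 32851 promoters of the same length, 31.0% hold ACAAT, 16.3% CAGCTG, 14.9% CCGGAA, 18.7% ACAAAG, 3.9% CATATG and 7.8% TGANTCA. No marked matches overlap. A match describes these letters and is not a measured binding site.

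**Figure D2:**
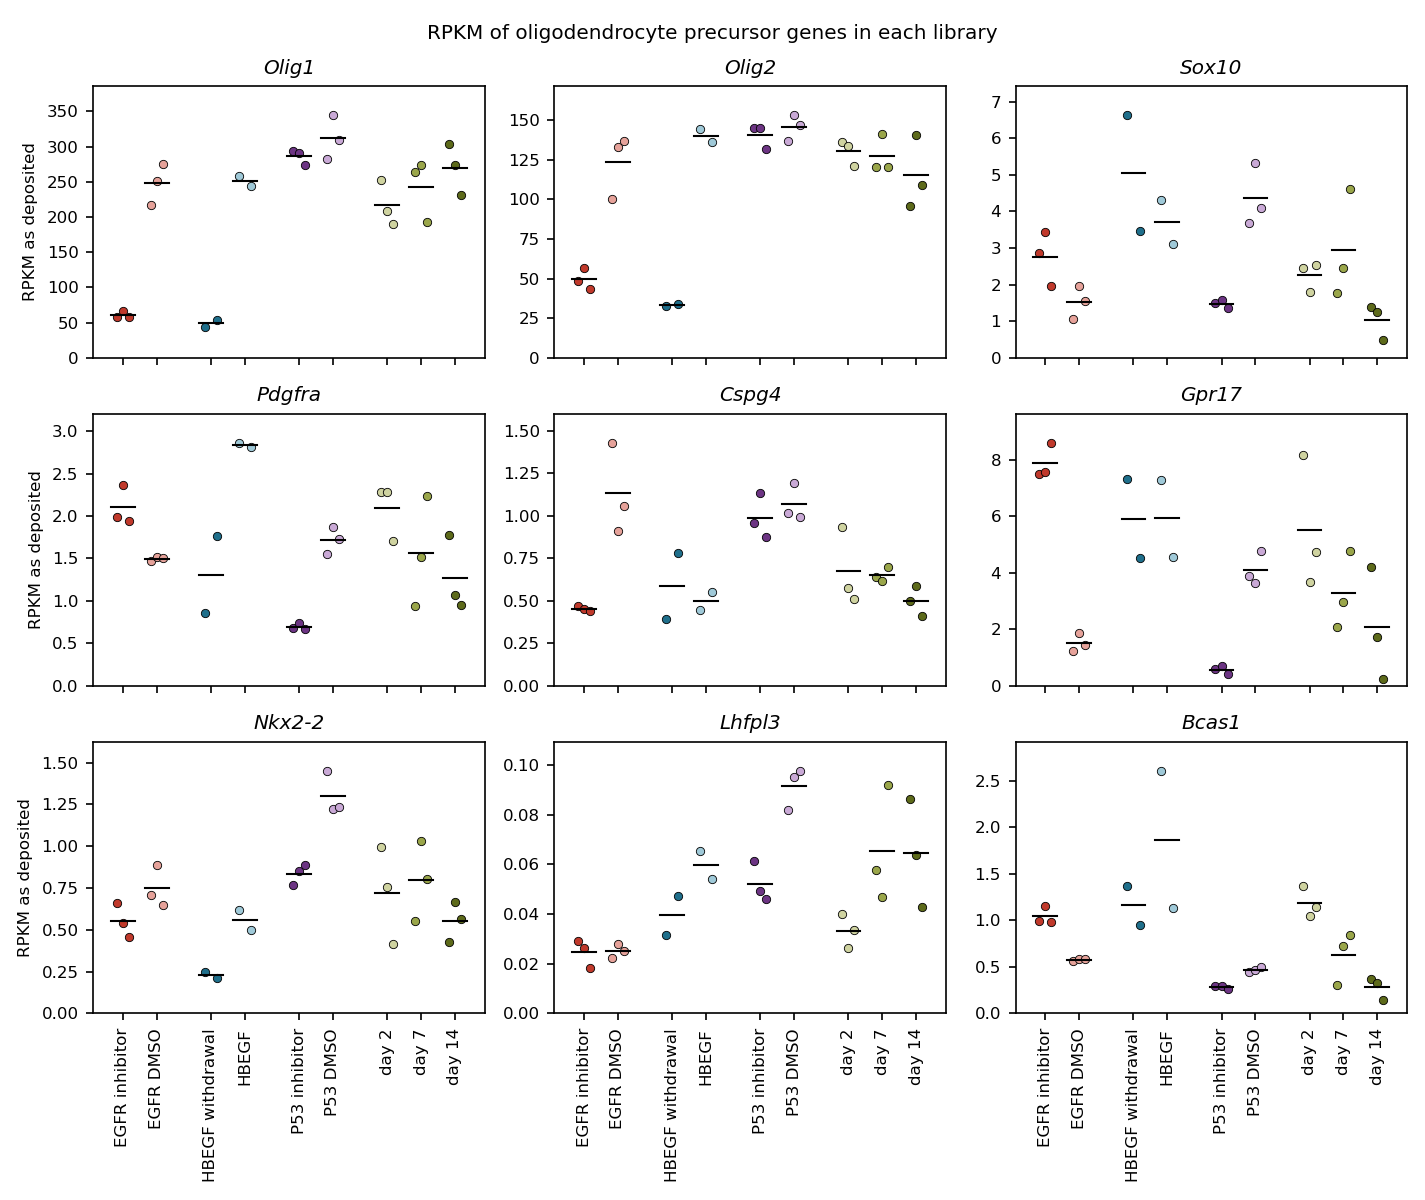
RPKM as deposited (linear axis, starting at 0) of the 9 genes in each of 25 libraries, by group; points are libraries and the line is the group mean. Olig1 and Olig2 are lowest in the EGFR inhibitor and HBEGF withdrawal libraries, and the mean of Gpr17 is highest with EGFR inhibitor and lowest with P53 inhibitor.

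The first comparison asked what blocking EGFR did to these genes. Olig1 and Olig2 fell sharply, Cspg4 fell as well, and Gpr17 rose. Of the 9 members 8 could be tested, since Lhfpl3 did not reach 1 RPKM in any library. Of these, 1 was called higher and 3 lower, at an adjusted p below 0.05 in limma, beside 16.3% of all 13850 tested genes called higher and 22.2% called lower (38.5% in all). The members' median log2 change was 0.07 and that of all tested genes -0.02. Cspg4, Nkx2-2 and Bcas1 reached 1 RPKM in only 5, 4 and 7 libraries, so these counts are descriptions.

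Olig1 had 58.3, 66.3 and 57.3 RPKM with EGFR inhibitor, against 217, 251 and 276 with DMSO. The groups did not overlap, and the inhibitor mean was 24.5% of the control mean. In log2(RPKM + 1) it fell by 2.01 ± 0.14 (SE; limma adjusted p = 2.37e-08). Olig2 had 48.3, 56.9 and 43.2 RPKM with inhibitor, against 100, 133 and 137 with DMSO, a log2 change of -1.30 ± 0.14 (limma adjusted p = 1.12e-06). Both factors therefore stayed readily measurable, at 60.6 ± 4.9 and 49.5 ± 6.91 RPKM in inhibitor libraries (SD, n = 3).

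Gpr17, a G protein-coupled receptor seen transiently as precursors differentiate, moved the other way. It had 7.47, 7.55 and 8.59 RPKM with EGFR inhibitor, against 1.21, 1.85 and 1.43 with DMSO. All inhibitor libraries lay above all controls, with a mean 5.25-fold higher and a log2 change of 1.83 ± 0.37 (limma adjusted p = 0.000658). Cspg4 had 0.468, 0.454 and 0.438 RPKM with inhibitor, against 1.43, 0.908 and 1.06 with DMSO. Its log2 change was -0.55 ± 0.11 (limma adjusted p = 0.000702) and -1.28 ± 0.22 in the voom fit of reads (adjusted p = 2.44e-05), the larger size being free of the added 1 RPKM.

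The other members did not pass the test with EGFR inhibitor. Bcas1 had 0.998, 1.16 and 0.986 RPKM with inhibitor, against 0.569, 0.581 and 0.589 with DMSO, and its groups did not overlap (log2 change 0.37 ± 0.15, limma adjusted p = 0.0591); it passed in 7 of 34 alternatives. Sox10 had 2.87, 3.43 and 1.96 RPKM with inhibitor, against 1.07, 1.97 and 1.56 with DMSO (log2 change 0.56 ± 0.25, limma adjusted p = 0.0909). Pdgfra averaged 2.1 ± 0.231 RPKM with inhibitor and 1.5 ± 0.0232 with DMSO (SD, n = 3 each; limma adjusted p = 0.150). Its groups did not overlap either, and it passed in 1 of 34 alternatives, the EGFR experiment fitted alone (adjusted p = 0.0209). Nkx2-2 averaged 0.551 ± 0.101 RPKM with inhibitor and 0.749 ± 0.125 with DMSO, with overlapping libraries. Lhfpl3 had 90, 84 and 56 reads with inhibitor, against 75, 99 and 110 with DMSO, and its voom log2 change was -0.05 ± 0.29 (adjusted p = 0.894). Bcas1, Sox10 and Pdgfra thus had higher means without a call, and Lhfpl3 had nearly equal ones.

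The genes listed for later steps of the lineage gave context for Gpr17. Of 9 genes of committed precursors and newly formed oligodendrocytes 3 were tested, and all 3 rose with EGFR inhibitor. They were Sirt2, a deacetylase abundant in the lineage (log2 change 0.87, limma adjusted p = 7.70e-05), Bmp4, a secreted growth factor (1.04, 0.000505) and Zfp488, a zinc-finger factor (0.51, 0.020). In the voom fit 8 of the 9 were tested, 7 rose and 1, Itpr2, fell, beside 24.1% and 22.8% of all 18018 genes; the 4 members called were those of the RPKM test. Of the myelin genes, Mbp averaged 0.296 ± 0.032 RPKM with inhibitor and 0.0573 ± 0.00277 with DMSO (SD, n = 3 each), a difference that was not called in limma (0.29, adjusted p = 0.121) and was called higher in the voom fit (2.35, adjusted p = 0.0103). Mag and Mobp were called in neither fit. Of 15 other precursor genes 7 were tested. C1ql1, a secreted C1q-related protein, rose (0.83, 0.000122), and the metalloprotease Mmp15 (-1.97, 1.48e-07) and the proteoglycan-chain enzyme Xylt1 (-0.83, 4.07e-08) fell. Among 5 PDGF ligands and receptors 2 were tested, and Pdgfrb, the other PDGF receptor, rose (0.92, limma adjusted p = 2.25e-06).

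Proliferation genes moved with the treatment. All 7 cycling genes tested fell with EGFR inhibitor, among them Ccnd1, the G1 cyclin D1 (log2 change -4.66, limma adjusted p = 2.57e-09), and Cdk1, the mitotic kinase (-2.23, 4.82e-05). The 7 summed to 18.9 to 22.5 RPKM with inhibitor, against 177 to 193 with DMSO. Mitochondrial ribosomal RNA made up 23.4 ± 1.77% of reads with inhibitor and 18.7 ± 0.237% with DMSO (SD, n = 3 each). The 7 interneuron-lineage markers, which include Dlx1 and Dlx2, summed to 39.3 to 43.8 RPKM with inhibitor, against 1.83 to 2.32 with DMSO, where Dlx5 and Dlx6 were at 0, and the 7 neuronal markers to 6.86 to 8.2 with inhibitor, against 3.06 to 3.26 with DMSO. The part of any of these in the changes of the members was not tested.

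The second comparison asked what withdrawal of the EGFR ligand HBEGF did. Olig1, Olig2 and Pdgfra fell, and Gpr17 had nearly equal means. No member of the 8 tested was called higher and 3 were called lower in limma, beside 10.0% and 22.5% of all tested genes (32.6% in all). The members' median log2 change was -0.35, against -0.10 for all tested genes.

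Olig1 had 44.4 and 54.3 RPKM after withdrawal, against 259 and 244 with HBEGF (log2 change -2.33 ± 0.18, limma adjusted p = 8.97e-08). Olig2 had 33.0 and 33.9 RPKM after withdrawal, against 144 and 136 with HBEGF (-2.04 ± 0.17, limma adjusted p = 2.01e-07). Neither gene's groups overlapped, and the withdrawal means were 19.6% and 23.8% of the HBEGF means. With 2 libraries a group, these calls rest on the spread shared by all 25 libraries. Fitted on the 4 HBEGF libraries alone, both had a limma adjusted p of 0.0736, and none of all genes was called.

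Pdgfra had 0.859 and 1.76 RPKM after withdrawal, against 2.86 and 2.82 with HBEGF. The withdrawal libraries lay apart from each other, and both were below both HBEGF libraries (log2 change -0.76 ± 0.20, limma adjusted p = 0.00685). Without withdrawal replicate 1 the log2 change was -0.48 (limma adjusted p = 0.122), and on the HBEGF libraries alone the adjusted p was 0.175. Nkx2-2 had 27 and 18 reads after withdrawal, against 80 and 51 with HBEGF, and did not pass in the RPKM values (-0.34 ± 0.14, limma adjusted p = 0.0798). It passed in the voom fit of reads (-1.25 ± 0.43, adjusted p = 0.0201), where 4 of 9 members were called lower, beside 21.6% of all 18018 genes.

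Gpr17 had 7.30 and 4.52 RPKM after withdrawal, against 7.28 and 4.56 with HBEGF, a limma log2 change of 0.00 ± 0.45 that was not called. Replicate 1 was the higher library in both groups, and libraries of the same number had nearly equal values. Sox10 had 6.63 and 3.46 RPKM after withdrawal, against 4.32 and 3.12 with HBEGF, and Bcas1 had 1.37 and 0.951, against 2.61 and 1.13. The HBEGF libraries lay far apart for Bcas1. Without HBEGF replicate 2 its log2 change was -0.75 (limma adjusted p = 0.00426), against 0.02 without HBEGF replicate 1. Cspg4 had 0.391 and 0.781 RPKM after withdrawal, against 0.446 and 0.55 with HBEGF, and Lhfpl3 had 110 and 126 reads, against 270 and 175 (voom log2 change -0.66 ± 0.29, adjusted p = 0.0733).

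Myelin genes rose after withdrawal. Of 5 tested, 4 rose, among them Mobp (log2 change 1.77, limma adjusted p = 1.30e-06), Mbp, which compacts the myelin sheath (1.44, 9.13e-06), and Mag (1.01, 9.25e-05). In the voom fit 9 of 11 rose, beside 16.6% of all genes. Of the committed-precursor genes Sirt2 rose (0.48, limma adjusted p = 0.0376) and Zfp488 fell (-0.65, 0.0182). Of the 2 PDGF genes tested, Pdgfrb rose as it did with EGFR inhibitor (1.07, limma adjusted p = 6.92e-06). Pdgfa was not called (0.46, limma adjusted p = 0.0761). In the voom fit 4 of 5 PDGF genes rose, beside the same 16.6% of all genes. Among the other precursor genes C1ql1 rose (0.81, limma adjusted p = 0.00125). Ptprz1, a receptor-type phosphatase (-1.38, limma adjusted p = 1.05e-05), Mmp15 (-1.53), Xylt1 (-0.74, 2.11e-06) and the proteoglycan Vcan (-0.33, 0.00889) fell. All but 1 of 7 cycling genes fell, and the 7 summed to 20.7 to 22.7 RPKM after withdrawal, against 83.3 to 188 with HBEGF. Mitochondrial ribosomal RNA took 28.9 ± 1.31% of reads after withdrawal and 17.7 ± 0.732% with HBEGF (SD, n = 2 each), and the median log2 change of 2354 well-expressed genes was -0.45, -0.33 with median-of-ratios scaling and -0.27 with mitochondrial genes left out. The interneuron-lineage markers summed to 17 to 17.1 RPKM after withdrawal, against 4.34 to 12.8 with HBEGF, and the myelinating-cell markers to 20.1 to 24.6 after withdrawal, against 4.88 to 11.5 with HBEGF. The part of these in the members' changes was not tested.

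**Figure D3:**
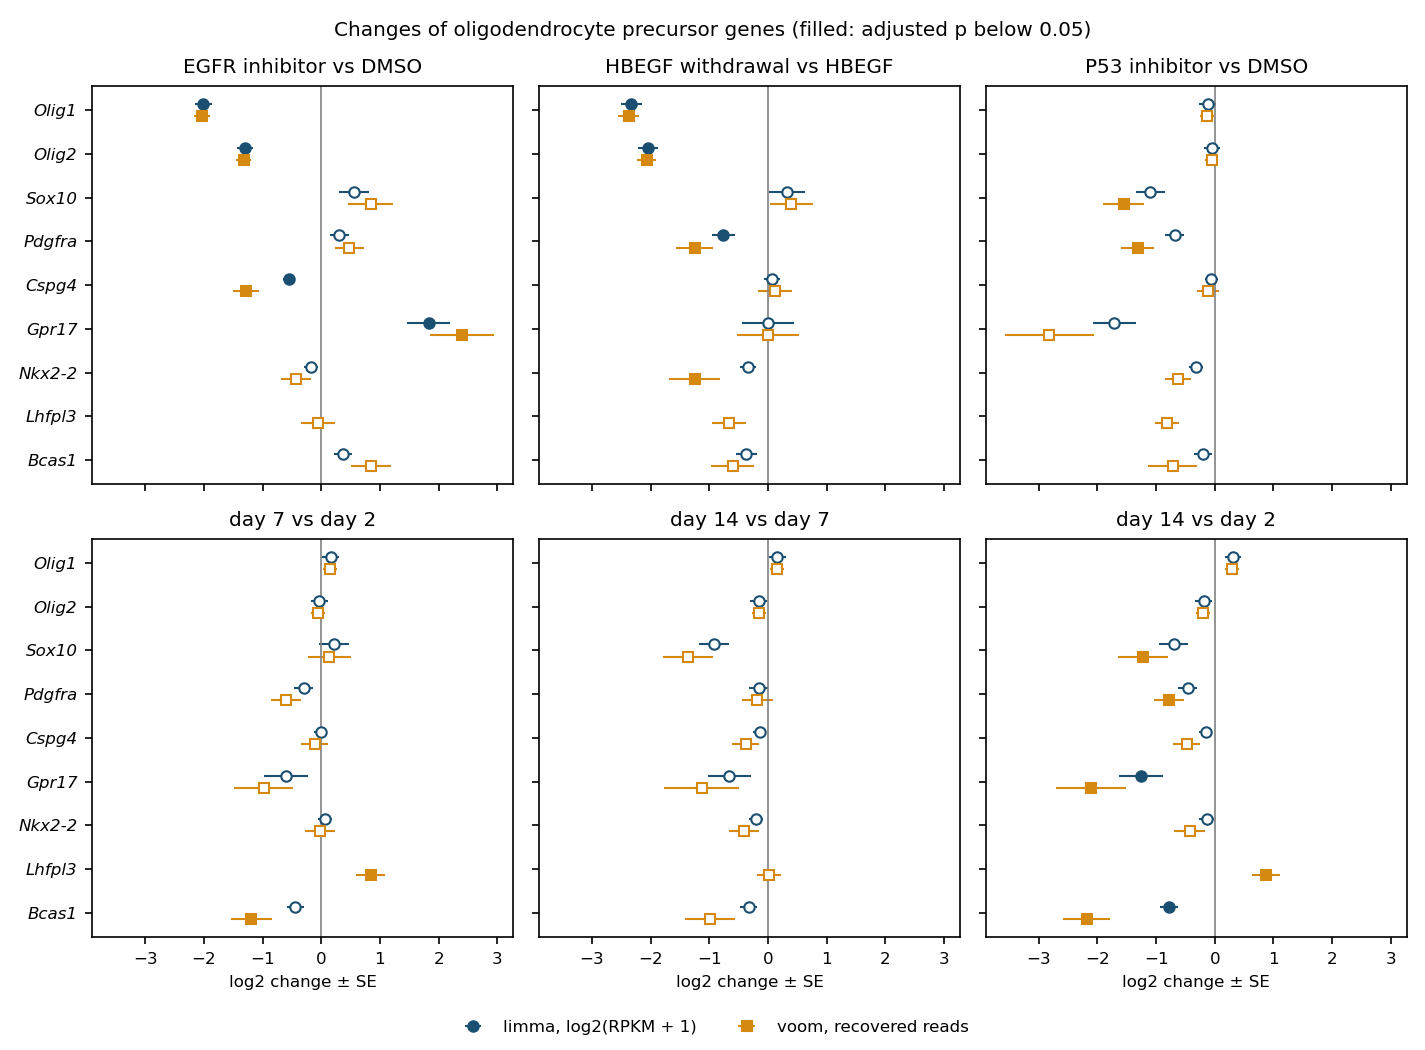
Log2 change with SE of each gene in 6 comparisons, from limma on log2(RPKM + 1) (blue circles) and voom on recovered reads (orange squares); filled symbols have an adjusted p below 0.05. Olig1 and Olig2 lie at -1.30 to -2.37 in the first 2 panels and between -0.20 and 0.31 in the other 4; Lhfpl3 has a voom value only.

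Whether the EGFR inhibitor and HBEGF withdrawal differed in their changes was tested directly as a difference of differences. Pdgfra was the 1 member called in limma, beside 1.83% of all genes: its log2 change was 0.31 with inhibitor and -0.76 with withdrawal, a difference of 1.07 ± 0.26 (limma adjusted p = 0.0414). It passed in 13 of 34 alternatives. Olig2 had log2 changes of -1.30 with inhibitor and -2.04 with withdrawal, a difference of 0.74 ± 0.21 that did not pass in the RPKM values (limma adjusted p = 0.0852) and passed in the voom fit (0.75 ± 0.21, adjusted p = 0.0355). Cspg4 passed in the voom fit too (-1.41 ± 0.37, adjusted p = 0.0277), and not in the RPKM values (-0.62 ± 0.17, limma adjusted p = 0.0757). With Pdgfra these were 3 of 9 members, beside 3.80% of all genes. Olig1 had a difference of 0.32 ± 0.23 (limma adjusted p = 0.531) and Gpr17 one of 1.84 ± 0.58 (0.115), and neither passed. Of the later-lineage genes Zfp488 (1.16, limma adjusted p = 0.0274) and Bmp4 (1.47, 0.0239) differed, higher with inhibitor, and Mbp, Mag and Mobp differed the other way (-1.15, -1.02 and -1.78; adjusted p at most 0.0136). In the voom fit Mobp was called (-7.15, adjusted p = 0.00720), while Mag was not (-2.22, 0.331) and Mbp had the other sign (0.30, 0.888).

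The third comparison asked what an inhibitor of P53, the stress-activated tumour suppressor, did. None of the 8 members was called in limma at an adjusted p below 0.05, beside 0.181% of all genes. Of the members, 4 had an unadjusted p below 0.05, and the share of all genes at that unadjusted p is not given here. The members' median log2 change was -0.26, against -0.01 for all tested genes. Olig1 averaged 286 ± 11.2 RPKM with P53 inhibitor and 312 ± 30.9 with DMSO (SD, n = 3 each), and Olig2 averaged 141 ± 7.78 with P53 inhibitor and 146 ± 8.32 with DMSO. Their log2 changes were -0.12 ± 0.14 and -0.05 ± 0.14.

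Several members had well separated libraries without a call. Gpr17 had 0.57, 0.71 and 0.396 RPKM with P53 inhibitor, against 3.88, 3.65 and 4.76 with DMSO (log2 change -1.71 ± 0.37, limma adjusted p = 0.0730). The inhibitor mean was 13.7% of the control mean. Sox10 had 1.49, 1.59 and 1.37 RPKM with inhibitor, against 3.69, 5.32 and 4.08 with DMSO (-1.10 ± 0.25, limma adjusted p = 0.0898). Pdgfra had 0.677, 0.737 and 0.665 RPKM with inhibitor, against 1.55, 1.87 and 1.73 with DMSO (-0.68 ± 0.16, limma adjusted p = 0.108). In none of these did the groups overlap. The share of all genes without overlap is not given here, so lack of overlap only describes these libraries.

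The calls turned on the scale and on the libraries fitted. In the voom fit Pdgfra (-1.31 ± 0.28, adjusted p = 0.0398) and Sox10 (-1.55 ± 0.35, 0.0481) were called lower, beside 0.483% of all genes, and Gpr17 was not (-2.82 ± 0.76, 0.124). With the P53 libraries fitted alone, limma called Gpr17 (adjusted p = 0.0318) and Pdgfra (0.0477). Lhfpl3 had 290, 239 and 148 reads with inhibitor, against 197, 356 and 244 with DMSO, or 0.0522 ± 0.00803 RPKM with inhibitor and 0.0916 ± 0.00847 with DMSO (SD, n = 3 each), with no overlap of the groups as RPKM (voom -0.81 ± 0.20, adjusted p = 0.0618). Nkx2-2 and Bcas1 were also lower without overlap, at 64.2% and 60.3% of the DMSO means. Cspg4 was at 92.5%, with overlapping libraries.

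One gene of the other lists was called with P53 inhibitor: Zfp488 fell to 0.294 ± 0.0459 RPKM, against 1.39 ± 0.264 with DMSO (SD, n = 3 each; log2 change -0.88, limma adjusted p = 0.0347). None of the 7 other precursor, 5 myelin, 2 PDGF or 7 cycling genes tested was called in limma, and none of these genes had an unadjusted p below 0.05. In the voom fit Sox6, Tnr and Pcdh15 of the other precursor genes were called lower. The 7 myelinating-cell markers summed to 0.2 to 0.297 RPKM with inhibitor, against 0.516 to 0.686 with DMSO, and mitochondrial ribosomal RNA took 24.7 ± 1.15% of reads with inhibitor and 23.7 ± 1.01% with DMSO (SD, n = 3 each).

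The last comparisons followed the cultures by day in vitro. Bcas1 and Gpr17 fell between day 2 and day 14, and Olig1 and Olig2 averaged 217 to 270 and 115 to 130 RPKM over the 3 days. Between day 7 and day 2 none of the 8 members was called in limma, beside 13.7% of all genes, with 1 unadjusted p below 0.05. Between day 14 and day 7 none was called either, beside 0.137%, with 2 unadjusted p below 0.05. Both percentages are shares at the adjusted p. The share of all genes at the unadjusted p is not given here, so the counts at that p only describe the members. Between day 14 and day 2, 2 fell and none rose, beside 17.6% and 5.55% of all genes (23.2% in all).

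Bcas1 had 1.37, 1.05 and 1.15 RPKM at day 2, 0.309, 0.721 and 0.838 at day 7, and 0.366, 0.326 and 0.145 at day 14. Day 2 and day 14 did not overlap, and the day 14 mean was 23.5% of the day 2 mean. The log2 change was -0.78 ± 0.15 (limma adjusted p = 0.00113), and -2.18 ± 0.40 in the voom fit (0.000519). It was called in all 34 alternatives (adjusted p 0.000133 to 0.0295).

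Gpr17 had 8.17, 3.67 and 4.73 RPKM at day 2, 2.08, 2.95 and 4.77 at day 7, and 4.21, 1.72 and 0.249 at day 14. The groups overlapped and the spread within each was wide (log2 change between day 14 and day 2 -1.26 ± 0.37, limma adjusted p = 0.0178). Without day 14 replicate 3 the change was -0.73 (limma adjusted p = 0.105), without day 2 replicate 1 it was -0.99 (0.0881), and on the day libraries alone the adjusted p was 0.160.

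Olig1 had 253, 209 and 190 RPKM at day 2, 264, 273 and 192 at day 7, and 304, 274 and 231 at day 14. These overlapped (day 14 against day 2 log2 change 0.31 ± 0.14, limma adjusted p = 0.134), but the gene was called higher with median-of-ratios scaling (0.47, 0.0281) and with mitochondrial genes left out of the total (0.46, 0.0310). Mitochondrial ribosomal RNA took 14.5 ± 1.98%, 19.2 ± 0.249% and 21.8 ± 1.91% of reads at days 2, 7 and 14 (SD, n = 3 each). Olig2 averaged 130 ± 8.16, 127 ± 11.9 and 115 ± 23 RPKM at the 3 days. Sox10 averaged 2.26 ± 0.414, 2.95 ± 1.48 and 1.04 ± 0.488 RPKM, and Pdgfra 2.09 ± 0.332, 1.56 ± 0.653 and 1.27 ± 0.448 (SD, n = 3 each). Neither passed between day 14 and day 2 in the RPKM values (limma adjusted p = 0.0541 and 0.0502), and both did in the voom fit (-1.22 and -0.78, adjusted p = 0.0417 and 0.0295).

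Lhfpl3, left out of the RPKM test by its span, was higher at both later days in the voom fit. Its reads were 205, 64 and 77 at day 2, 266, 119 and 195 at day 7, and 306, 266 and 138 at day 14. As RPKM these were 0.0399, 0.0263 and 0.0336, then 0.0579, 0.0468 and 0.0918, then 0.0864, 0.0637 and 0.0431, and every later library lay above every day 2 library. In the voom fit the log2 change was 0.84 ± 0.25 at day 7 (adjusted p = 0.0176) and 0.87 ± 0.24 at day 14 (0.00726), both against day 2. That fit called Lhfpl3 and Bcas1 (lower, -1.19 ± 0.35, adjusted p = 0.0275) between day 7 and day 2, beside 16.5% of all genes. Between day 14 and day 2 it called 4 members lower and Lhfpl3 higher, beside 28.2%. Cspg4 and Nkx2-2 were not called at any step.

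Among other precursor genes, Sox8, a SOX factor related to Sox10 (log2 change 0.88, limma adjusted p = 0.00315), and Ptprz1 (0.65, 0.00256) rose between day 14 and day 2, and Vcan fell (-0.94, 1.99e-07). Pdgfa, the ligand of Pdgfra, fell (-0.50, limma adjusted p = 0.0267), and Sirt2 rose (0.61, 0.00357). None of 5 myelin genes was called in limma, and 3 of 7 cycling genes fell. Of the myelin genes 1 had an unadjusted p below 0.05, for which the share of all genes is not given. Precursor genes outside the 9 members therefore included both rises and falls over the same interval.

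Libraries of 1 group differed in how much of several members they held. After the group mean of log2(CPM + 1), where CPM is the read count scaled to the library total, was removed, Sox10 and Bcas1 deviated together over the 25 libraries (Pearson r 0.79, Spearman rho 0.78), as did Gpr17 and Bcas1 (0.78 and 0.86) and Sox10 and Gpr17 (0.76 and 0.77). Without the 2 libraries farthest from their group mean in the first-named gene, the r were 0.69, 0.76 and 0.65. Lhfpl3 deviated with Gpr17 (r 0.65, and 0.43 without 2 libraries), Sox10 (0.64 and 0.45) and Pdgfra (0.63 and 0.59). In these pairs the 2 libraries left out were those farthest in the gene other than Lhfpl3. Olig1 and Olig2 had an r of 0.46, and 0.47 without 2 libraries. Some other pairs of Olig1 changed without its 2 farthest libraries, replicate 3 of day 7 and replicate 1 of day 2. Its r was then 0.31 with Sox10, against 0.08 over all 25, and 0.50 with Pdgfra, against 0.20 over all. With Cspg4 it was 0.34, against 0.35 over all, and with Nkx2-2 it was 0.01, against 0.12. These are descriptions over libraries that share groups and a common total, and they carry no p.

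**Figure D4:**
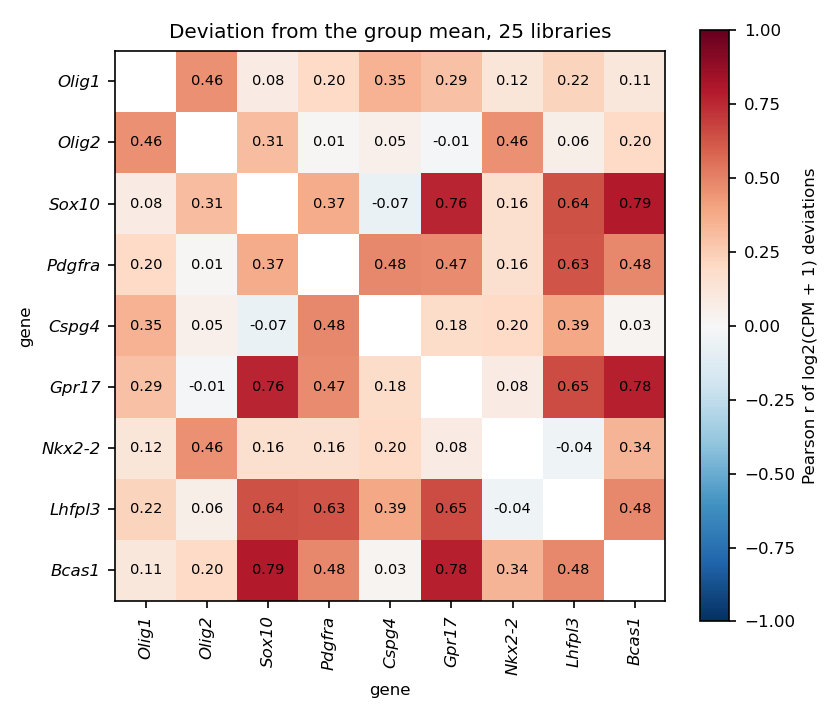
Pearson r between genes of their deviations from the group mean in log2(CPM + 1) over 25 libraries; red is positive and blue negative. Sox10, Gpr17 and Bcas1 have r of 0.76 to 0.79 with each other, and Olig1 and Olig2 have 0.46.

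Across the 9 group means of log2(RPKM + 1), the genes most like Olig1 were Rab6a, a Golgi GTPase (r = 0.985), Lrig1, a negative regulator of EGFR-family receptors (0.983), and Olig2 (0.982). Those most like Olig2 were Bmt2 (0.991), Hspa13 (0.988) and the kinase Fyn (0.985). Sox10 was most like Ugdh (0.944), Gpr17 most like Cacnb3 (0.962), Bcas1 most like Meaf6 (0.959), Nkx2-2 most like Marveld1 (0.951), Cspg4 most like Gpx3 (0.947) and Pdgfra most like the small nucleolar RNA Snord59a (0.920). With 9 points chosen from 13850 genes, such values describe a pattern only.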

How the data were processed

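RNA-seq values came from 25 libraries in 9 groups, taken from the labels. The authors deposited RPKM for 54429 entries; per the submitters' processing notes GRCm38, STAR, HTSeq, edgeR and limma were used. The sources used here do not state their roles or versions, the annotation, the counted feature or the strand setting. Per the labels' protocols, cDNA was made with a Nugen Ovation kit. Symbols were matched to GENCODE M21 (53713 entries had a length). Reads recovered from RPKM and gene span were whole, within 0.1, for 98.97 to 99.28% of values up to 20 reads. Inside introns of another gene on the same strand lie 5215 genes, and 3933 of them had reads; whether reads were counted over exons or whole genes is not stated.

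The test was limma 3.58.1 in R 4.3.3 on log2(RPKM + 1), with trend and robust empirical Bayes, 9 group means over all 25 libraries (16 residual degrees of freedom), for the 13850 genes that reached 1 RPKM in 2 or more libraries. Benjamini-Hochberg adjustment ran over all tested genes, with calls below 0.05; p-values that follow the first in a sentence are adjusted too. Voom used the 18018 genes with at least 10 reads in 2 libraries. The other alternatives were a pseudocount of 0.1, no filter, the read filter, median-of-ratios scaling, totals without mitochondrial genes, log2(CPM + 1), each experiment fitted alone, a replicate block and leaving out each library. Steps were tested on simulated data. The members, the lists and the tests were chosen with earlier results of these data known. All 9 members are named, with up to 4 genes of each list by adjusted p and the genes most like each member; some listed genes are not reported here. No libraries were identical (highest correlation 0.947). Deviations of same-numbered libraries correlated at -0.24 to 0.28, over 0.1 in every pair for day 14 and day 2 only.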

Additional observations from a re-analysis of the deposited data

Results flagged for a closer look

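Pdgfra differed between the ways of blocking EGFR signalling: its log2 change was 0.31 with the EGFR inhibitor against DMSO and -0.76 after HBEGF withdrawal against HBEGF. The difference of 1.07 ± 0.26 passed the limma test of the difference itself (adjusted p = 0.0414). Over 34 alternatives it kept its direction, at 0.79 to 1.73, and passed in 13, with adjusted p from 0.0164 to 0.163. The lowest difference, 0.79, was without withdrawal replicate 1. Groups of 2 or 3 libraries were too small for a check of single outlying libraries.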

How the results depend on the processing

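Olig1, Olig2, Cspg4 and Gpr17 were called with EGFR inhibitor, and Bcas1 between day 14 and day 2, in all 34 alternatives. Counts of members called, over the 8 tested in RPKM, moved elsewhere. Lhfpl3 comes on top of them with the 10-read filter, log2(CPM + 1) or voom, for day 7 and for day 14 against day 2 (adjusted p 0.00454 to 0.0467). HBEGF withdrawal gave 3, and 0 when fitted alone. P53 inhibitor gave 0, against 1 with log2(CPM + 1) and 2 with voom or fitted alone. Day 7 against day 2 gave 0, against 1 with the 10-read filter or voom. Day 14 against day 2 gave 2, against 4 with the 10-read filter, log2(CPM + 1) or voom, 3 with pseudocount 0.1, median-of-ratios scaling or no mitochondrial genes, and 1 fitted alone. The difference between the EGFR inhibitor and HBEGF withdrawal changes gave 1, against 0 with pseudocount 0.1, without mitochondrial genes, fitted alone or with the replicate block, 2 with the 10-read filter, and 3 with log2(CPM + 1) or voom. Leaving out a library gave 4 to 5 with EGFR inhibitor, 2 to 4 with withdrawal, 0 to 1 with P53 inhibitor, 0 to 1 for day 7 against day 2, 0 to 0 for day 14 against day 7, 1 to 4 for day 14 against day 2 and 0 to 2 for the difference.

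With the replicate block the Pdgfra difference was 1.07 (limma adjusted p = 0.146). Whether same-numbered libraries belong together is not stated, and groups of 2 or 3 libraries are too small to decide it. For day 14 against day 2 the block changed no call of a member.

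Signs turned for changes near 0. Gpr17 after withdrawal was 0.00, 0.11 with median-of-ratios scaling and 0.19 without mitochondrial genes. Against day 2, day 7 gave -0.03 for Olig2 (0.02 and 0.05 under the same scalings), -0.01 for Cspg4 (0.01 and 0.03, and 0.00 with log2(CPM + 1)) and 0.07 for Nkx2-2 (-0.02 with voom). Leaving out a library gave, after withdrawal, -0.07 to 0.71 for Sox10, -0.11 to 0.25 for Cspg4, -0.30 to 0.29 for Gpr17 and -0.75 to 0.02 for Bcas1. It gave, for day 7 against day 2, -0.11 to 0.00 for Olig2, -0.07 to 0.44 for Sox10, -0.08 to 0.10 for Cspg4 and -0.07 to 0.18 for Nkx2-2. For day 14 against day 7 it gave 0.00 to 0.27 for Olig1 and -0.35 to 0.02 for Pdgfra, and for the difference -0.14 to 0.63 for Sox10. The causes were not tested.

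Over all genes, calls with EGFR inhibitor were 5337, against 8137 with the 10-read filter, 8394 with log2(CPM + 1) and 8447 with voom. In the same order they were 4511 against 6807, 7028 and 6893 after withdrawal (0 fitted alone), 1899 against 2935, 3184 and 2969 for day 7 against day 2 (190 alone), 19 against 53, 148 and 114 for day 14 against day 7 (44 unfiltered, 0 alone, 7 with the block), and 253 against 906, 760 and 684 for the difference (696 unfiltered, 45 alone, 63 with the block). P53 inhibitor gave 25, against 40 with median-of-ratios scaling, 100 with log2(CPM + 1), 115 with voom and 6 with the block. Day 14 against day 2 gave 3208, against 5035 with log2(CPM + 1), 5083 with voom and 1287 alone. Leaving out a library gave 2 to 65 for P53 inhibitor, 938 to 2037 for day 7 against day 2, 0 to 25 for day 14 against day 7, 2080 to 3376 for day 14 against day 2 and 108 to 332 for the difference.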

Other observations

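Some members stood at different levels in the 2 sets of DMSO controls, which were not compared by a test. Gpr17 had 1.21 to 1.85 RPKM in the controls of the EGFR inhibitor and 3.65 to 4.76 in those of the P53 inhibitor. Sox10 had 1.07 to 1.97 RPKM in the EGFR controls and 3.69 to 5.32 in the P53 controls, and Lhfpl3 averaged 0.0252 ± 0.00283 RPKM in the EGFR controls and 0.0916 ± 0.00847 in the P53 controls (SD, n = 3 each). Cspg4 averaged 1.13 ± 0.268 RPKM in the EGFR controls and 1.07 ± 0.111 in the P53 controls, with overlapping libraries.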
